A study of Mus musculus with 6 samples.

Results

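The genes described here are 43 interferon-stimulated sensors and effectors of the mouse, out of 18857 genes with at least 1 read in any of 6 RNA-seq libraries. They were chosen as a named list with the levels in these same libraries in view. Their levels and their differences between libraries are therefore a description, and the calls of the fits given later support nothing about them. All 43 had reads in at least 1 library. In untreated cells they ranged from below 1 RPKM (reads scaled to a kilobase of gene and to 1e6 reads of that library), for 13 members, to 63.8 RPKM.

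Type I interferons bind a receptor at the cell surface, and the kinases JAK1 and TYK2 then activate STAT proteins, among them STAT2, which acts with IRF9 in a complex called ISGF3. ISGF3 binds interferon-stimulated response elements in the promoters of a large set of genes, many of which sense foreign nucleic acids or block the growth of viruses. Pluripotent stem cells are known for a weak response to interferon and to double-stranded RNA compared with differentiated cells.

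The cells were mouse embryonic stem cells (ESCs) of the KH2 line on a C57BL/6 x 129 background, and each group was 1 library of polyA RNA. In 1 library KH2 cells, labelled wild type, were untreated, and in a second they were treated with the MEK kinase inhibitor PD0325901 for 48 hours. The other libraries were of a line labelled iErk1; Erk KO, also labelled KH2: kept in doxycycline (Dox), taken off Dox 48 hours earlier, taken off Dox 96 hours earlier, and taken off Dox 96 hours earlier with PD0325901 added for the final 48 hours. ERK1, encoded by Mapk3, is a kinase that MEK activates. The series design sets the 48 hour library against the Dox library for the effect of losing Erk, and each PD0325901 library against its untreated partner for the effect of MEK inhibition. The labels do not say whether the line is 1 clone, how much inhibitor was used or whether feeders were present. Mapk3, as a check of the labels, stood at 56.4, 52.8, 14.8, 6.86, 6.75 and 9.18 RPKM in the order KH2, KH2 with PD0325901, Dox, 48 hours, 96 hours, and 96 hours with PD0325901. This order holds for every series of 6 values in the text.

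Libraries held 9.05 to 9.95 times 1e6 reads and 16042 to 17403 genes. Of 10 ESC markers, Pou5f1 lay between 539 and 769 RPKM. By the limit of size given below, Nanog and Fgf4 were higher and Utf1 lower at 48 hours against Dox, Nanog was higher and Utf1 and Lin28a lower at 96 hours against Dox, and Utf1 and Dppa5a were lower with Dox than in KH2. Under PD0325901 Utf1 was lower in KH2, and between both PD0325901 libraries Zfp42 was higher and Utf1 and Dppa5a lower in the Erk KO line. Spry4, a gene that ERK signalling induces, had 1316, 51, 1036, 69, 294 and 6 reads: it was low at 48 hours and higher again at 96 hours without inhibitor. Summed RPKM of 24 fibroblast markers was 772, 3601, 230, 235, 297 and 1226, so it was high in both PD0325901 libraries and between 230 and 297 RPKM over the Dox withdrawal. None of the 24 was at 0 in any library. The leukocyte marker Ptprc had 5, 0, 3, 1, 3 and 13 reads, and the summed RPKM of 10 macrophage and leukocyte markers lay between 39.1 and 57.8. In such bulk RNA, fewer cells of a type and less RNA per cell cannot be told apart.

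The members as a group were lowest with Dox and highest after 96 hours without it. Their summed level was 285, 329, 129, 181, 697 and 680 RPKM, and the median member stood at 2.10, 2.89, 0.484, 1.22, 11.2 and 10.4 RPKM. The number of members at 1 RPKM or more was 30, 32, 16, 25, 40 and 40. Thus 34 of the 43 had their lowest level in the Dox library, where 28.4% of 15103 genes with at least 20 reads over the 6 libraries did, and 39 had their highest in 1 of the pair of 96 hour libraries, where 18.1% of genes did. For 20 of them the highest was the 96 hour library without inhibitor, as for 8.06% of genes. These shares of all genes stand beside the members' counts as background and are no test.

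**Figure D1:**
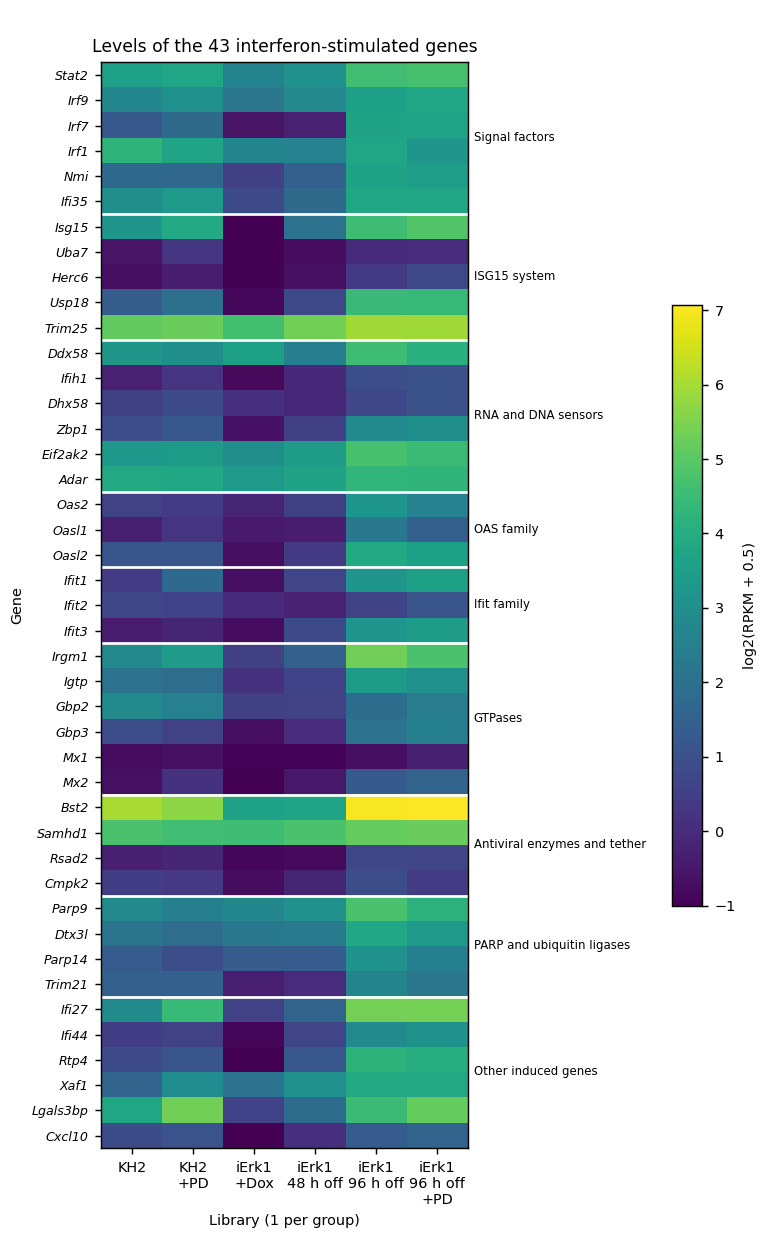
Level of each of the 43 members as log2(RPKM + 0.5), genes in rows grouped by role and the 6 libraries in columns (1 library per group). The Dox column is dark, with 16 members at 1 RPKM or more, and both 96 hour columns are bright, with 40 each.

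Reference promoter sequence was not read in choosing the members. They were named as interferon-stimulated genes, however, and response elements in the promoters of such genes follow in part from that naming. The shares below therefore describe the list and say nothing about these libraries. RefSeq windows of 300 bases (250 before to 50 after the gene start, build GRCm38.p6) were found for 33 of the 43. The core of the response element, searched as GAAA, any 2 bases and GAAA on both strands, was in 15 of these 33 windows (45.5%) and in the windows of 3.99% of 27025 genes. The stricter form, the same core followed by CT, was in 8 member windows (24.2%) and in 0.303% of genes. The gamma-activated site, searched as TTC, any 3 bases and GAA, was in 8 windows (24.2%) and in 9.55% of genes. Stretches around the matches before the gene start follow for 8 of the 11 members that have one there, to show how the copies lie, 5′ to 3′ on the gene's own strand, with every core match in capitals (TTTC, any 2 bases and TTTC where the match is on the other strand).
Isg15, chr4:156200855-156200916, minus strand: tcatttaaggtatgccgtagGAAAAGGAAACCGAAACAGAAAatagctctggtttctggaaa
Bst2, chr8:71537567-71537622, minus strand: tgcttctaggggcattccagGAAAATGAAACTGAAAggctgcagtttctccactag
Ifit1, chr19:34640765-34640833, plus strand: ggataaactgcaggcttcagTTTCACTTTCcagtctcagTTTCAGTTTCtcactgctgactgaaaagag
Ifit3, chr19:34583353-34583436, plus strand: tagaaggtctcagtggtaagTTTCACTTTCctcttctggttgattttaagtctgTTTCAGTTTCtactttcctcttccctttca
Irgm1, chr11:48871421-48871470, minus strand: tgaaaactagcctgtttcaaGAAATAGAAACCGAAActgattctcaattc
Igtp, chr11:58199502-58199551, plus strand: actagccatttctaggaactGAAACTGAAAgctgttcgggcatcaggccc
Stat2, chr10:128270256-128270305, plus strand: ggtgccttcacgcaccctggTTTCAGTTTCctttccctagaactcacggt
Gbp2, chr3:142620584-142620633, plus strand: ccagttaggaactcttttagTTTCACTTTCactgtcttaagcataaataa
In Isg15 3 core matches overlap in 1 run, in Bst2 and Irgm1 2 do, and Ifit1 and Ifit3 each hold 2 separate copies. At 96 against 0 hours without Dox the median log2 ratio was 2.77 over the 15 members with a core match, 1.62 over the 18 with a window and no match, and 2.85 over the 10 with no window.

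A member was called higher or lower in a pair of libraries when its log2 ratio of RPKM + 0.5 was at least 1 in size, the higher library had at least 1 RPKM, both together had at least 20 reads, and the exact 95% interval of the read ratio excluded 1. With 1 library per group this is a limit of size and counting error, and differences between cultures are not measured. Folds below are ratios of reads per library total, with their counting intervals. A member at 0 reads was set against a floor of 3 reads in that library. Such a fold takes the reads of the other library as counted, so the lower 95% counting limit of the ratio to 0 reads is given beside it.

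After 48 hours without Dox, 8 members were called higher and 1 lower, against 2.77% and 2.13% of the 11386 genes that passed the filters, which 25 members did. After 96 hours, 35 of the 40 members that passed the filters were called higher and 0 lower, against 7.62% and 2.07% of 11804 genes. Between 48 and 96 hours, 33 of 40 were higher and 0 lower, against 4.55% and 0.469% of 11722 genes, with Ifih1 at 1.03 just inside the limit (outside it under TMM and DESeq2 size factors) and Ifit2 at 0.90 just outside. These comparisons share libraries, so their counts are not independent. The median log2 ratio over all 43 was 0.51 at 48 hours, 2.29 at 96 hours and 1.81 between them, where the medians of all genes tested were -0.03, 0.05 and 0.08. Members that passed the filters only through a high 96 hour level had to differ, so the counts support nothing by themselves. TMM (trimmed mean of M-values) scaling and DESeq2 size factors shifted the median of all genes by -0.10 and -0.13 at 96 hours against Dox, and by -0.11 and -0.14 against 48 hours.

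For the members called at 96 hours, most of the RPKM difference came in the second interval. Of the 41 members with at least 20 reads over the 3 times, 36 had a higher RPKM at each later time (26.4% of 13445 genes did), 5 were lower at 48 hours and higher again at 96 hours (34.1% of genes), and 0 were lower at each step (18.1% of genes). Over the 35 members called at 96 hours, the median share of the 0 to 96 hour RPKM difference already present at 48 hours was 9.94%, from -3.56% to 44.8%. In 30 of the 35 it was under 25%. These 35 were picked by their 96 hour level, and the share was not computed over all genes. Between 48 and 96 hours 59.7% of 11722 genes tested had a log2 ratio above 0, as did 43 of 43 members.

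**Figure D2:**
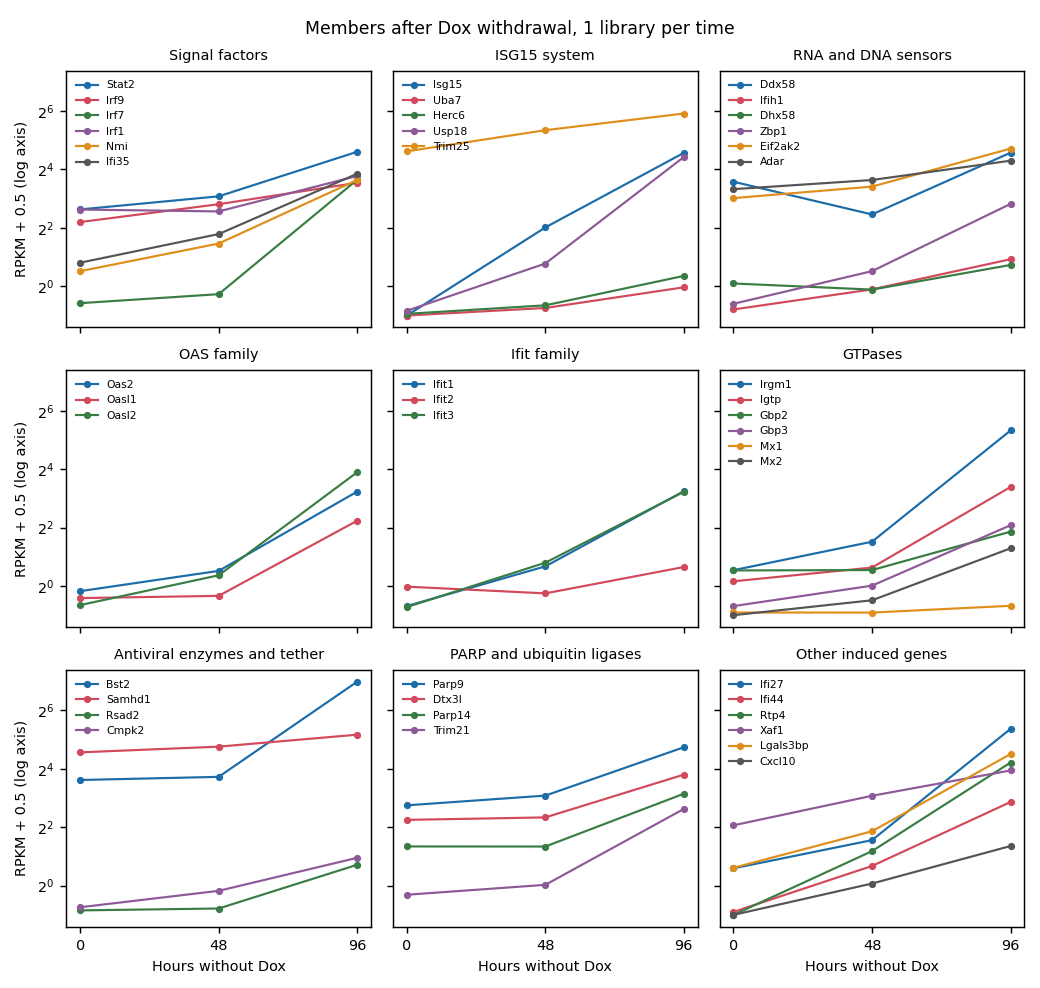
Level of each member as RPKM + 0.5 on a log axis against hours without Dox (0, 48 and 96), 1 line per gene and 1 panel per role, with 1 library per time and no error bar. On this scale 40 of 43 lines climb more steeply after 48 hours than before (the others are Isg15, Trim25 and Xaf1). Members near the floor, such as Mx1, are included, and the same count was not made over all genes. Ddx58 goes down to 5.004 RPKM at 48 hours before it reaches 23.3.

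The signal factors among the members, which carry or tune the interferon response, were all called higher at 96 hours, 6 of 6, and none was at 48 hours. Irf7, the factor that drives the late interferon genes, showed the widest range of these, with 1.88, 2.95, 0.170, 0.330, 12.0 and 12.7 RPKM. It stood 70.9-fold (95% interval 23.9 to 346) higher at 96 than at 0 hours and rested on 32, 50, 3, 6, 225 and 235 reads. Stat2, a subunit of ISGF3, had 11.8, 12.8, 5.70, 7.96, 23.8 and 25.9 RPKM, 4.19-fold (95% interval 3.63 to 4.84) higher at 96 hours. Irf9, the DNA-binding subunit of ISGF3, had 6.10, 7.86, 4.09, 6.52, 11.2 and 12.8 RPKM, 2.73-fold (95% interval 2.16 to 3.47) higher. Both subunits were measured well above the floor in every library, and their Dox libraries were the lowest of the 6.

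Irf1, an activator that interferon gamma induces early, had another order of levels. Its levels were 18.4, 12.5, 5.68, 5.41, 13.2 and 8.89 RPKM, so that untreated KH2 was the highest library, and 48 hours differed from Dox by less than counting error, at 0.953-fold (95% interval 0.728 to 1.246). At 96 hours Irf1 was 2.33-fold (95% interval 1.87 to 2.91) higher than with Dox. Nmi and Ifi35 encode a pair of proteins that bind each other, and both were lowest with Dox. Nmi had 2.90, 2.83, 0.932, 2.26, 12.0 and 10.6 RPKM and Ifi35 7.52, 9.91, 1.2503, 2.96, 14.0 and 13.01 RPKM, and their 96 hour levels were 12.8-fold (95% interval 7.15 to 25.4) and 11.2-fold (95% interval 6.70 to 19.9) above Dox.

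Isg15 encodes a ubiquitin-like protein that is attached to other proteins, and its machinery was split between genes with large and small differences. Isg15 had 62, 101, 0, 26, 175 and 216 reads, or 9.02, 14.8, 0, 3.54, 23.3 and 29.1 RPKM, the Dox library having no read at all. Against the floor it was at least 8.404-fold higher at 48 hours (lower counting limit 6.36) and at least 55.1-fold higher at 96 hours (lower counting limit 44.4). Usp18, the protease that removes ISG15 and also damps the receptor, had 2.10, 3.42, 0.0598, 1.22, 21.0 and 20.9 RPKM from 34, 55, 1, 21, 372 and 366 reads, and its single Dox read makes the 96 hour ratio of 352-fold (95% interval 62.7 to 13925) very wide. Trim25, a ubiquitin ligase that acts on RIG-I and is also an ISG15 ligase, was abundant everywhere at 33.6, 37.0, 24.1, 40.1, 59.9 and 59.7 RPKM and 2.48-fold (95% interval 2.33 to 2.65) higher at 96 hours. Uba7, the activating enzyme, stayed between 0 and 0.699 RPKM, and Herc6, the main mouse ligase, between 0.0201 and 1.21 RPKM. Neither passed the filters at 96 hours, and both had more reads there (15 and 41) than with Dox (0 and 1).

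Of the members grouped as RNA and DNA sensors, with the RNA-editing enzyme Adar placed among them, 3 of 6 were called higher at 96 hours. Eif2ak2, the double-stranded RNA-dependent kinase PKR, had 9.35, 10.2, 7.61, 10.2, 25.8 and 22.0 RPKM, 3.39-fold (95% interval 2.98 to 3.85) higher. Zbp1, which binds left-handed nucleic acid and can trigger cell death, had 1.38, 1.78, 0.160, 0.933, 6.57 and 7.52 RPKM from 25, 32, 3, 18, 130 and 147 reads, 41.0-fold (95% interval 13.7 to 201) higher. Ifih1, the sensor MDA5, had 0.339, 0.681, 0.0770, 0.429, 1.40 and 1.51 RPKM from 17, 34, 4, 23, 77 and 82 reads, 18.2-fold (95% interval 6.83 to 68.5) higher.

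Ddx58, the sensor RIG-I, was the member called lower at 48 hours. Its levels were 9.17, 7.58, 11.5, 5.004, 23.3 and 17.1 RPKM, so the Dox library was above both KH2 libraries. It was 2.29-fold (95% interval 1.96 to 2.68) lower at 48 hours than with Dox, and 4.66-fold (95% interval 4.05 to 5.38) higher at 96 than at 48 hours. Its 0 to 96 hour log2 ratio of 0.99 lay just under the limit of 1, as did that of Adar at 0.98. Adar, which edits double-stranded RNA and so keeps MDA5 quiet, had 14.4, 13.5, 9.52, 12.0, 19.2 and 18.9 RPKM, 2.02-fold (95% interval 1.82 to 2.24) higher at 96 hours. The nearest members inside the limit were Irf1 at 1.15 and Trim25 at 1.30. Dhx58, the RIG-I relative LGP2, ranged from 0.425 to 1.51 RPKM and was not called at either time.

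The oligoadenylate synthetase family, whose active members make the messenger that turns on RNase L, was called higher at 96 hours in 3 of 3 members. Oasl2 had 1.68, 1.73, 0.136, 0.789, 14.4 and 11.3 RPKM from 48, 49, 4, 24, 449 and 349 reads, 106-fold (95% interval 41.2 to 391) higher at 96 hours. Oas2 had 0.966, 0.827, 0.384, 0.931, 8.90 and 5.46 RPKM, 23.2-fold (95% interval 13.6 to 42.8) higher. Oasl1, which lies next to Oasl2, was lower in level, between 0.2502 and 4.21 RPKM, and 16.8-fold (95% interval 6.95 to 53.1) higher. All 3 were at or below 1.73 RPKM in both KH2 libraries and in the first 48 hours.

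Of the neighbouring Ifit genes, whose proteins bind viral RNA ends, 2 of 3 were called higher at both times. Ifit1 had 0.834, 2.89, 0.121, 1.09, 8.99 and 11.5 RPKM from 20, 69, 3, 28, 236 and 297 reads, 9.05-fold (95% interval 2.80 to 46.5) higher at 48 hours and 74.4-fold (95% interval 25.1 to 363) higher at 96 hours. Ifit3 had 0.275, 0.387, 0.106, 1.24, 8.85 and 10.4 RPKM from 5, 7, 2, 24, 176 and 205 reads, 11.6-fold (95% interval 2.89 to 102) and 83.2-fold (95% interval 22.7 to 692) higher. Its close copy Ifit3b had 5, 3, 2, 9, 59 and 53 reads, and counting of unique reads leaves the level of both uncertain. Ifit2 stayed between 0.339 and 1.70 RPKM, with its 96 hour log2 ratio at 0.67, and was not called at either time. At 96 hours without inhibitor it stood at 1.07 RPKM, between its pair of KH2 levels.

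Interferon-inducible GTPases, which attack the vacuoles of intracellular microbes or, as Mx proteins, viral particles, were called higher at 96 hours in 5 of 6 members. Irgm1 was the strongest by read number, with 6.47, 10.4, 0.954, 2.36, 39.6 and 26.6 RPKM, 41.4-fold (95% interval 26.7 to 68.2) higher. Igtp had 3.57, 3.21, 0.618, 1.05, 9.98 and 7.74 RPKM, 16.1-fold (95% interval 9.05 to 31.8) higher. Gbp3 had 1.38, 1.01, 0.121, 0.508, 3.73 and 5.09 RPKM from 33, 24, 3, 13, 98 and 132 reads, 30.9-fold (95% interval 10.3 to 152) higher. Gbp2, its neighbour, had 6.63, 5.28, 0.946, 0.959, 3.13 and 4.86 RPKM, so it was highest in untreated KH2, and at 96 hours it was 3.31-fold (95% interval 2.04 to 5.58) above Dox. Mx2 had 3, 14, 0, 5, 47 and 59 reads, at least 14.8-fold higher at 96 hours against the floor (lower counting limit 11.6), while Mx1 had 1 to 10 reads in every library and could not be compared at this depth. Reads of the Gbp and Irgm families may be uncertain where copies are alike.

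Bst2, the membrane tether that holds budding virions, was the most abundant member in 4 of the 6 libraries, while Trim25 and Samhd1 stood above it with Dox and at 48 hours. Its levels were 63.8, 50.8, 11.8, 12.7, 126 and 134 RPKM, near its Dox level at 48 hours at 1.08-fold (95% interval 0.813 to 1.44) and 10.7-fold (95% interval 8.69 to 13.3) higher at 96 hours. Samhd1, which depletes nucleotides, was high and nearly level at 26.6, 23.8, 23.2, 26.6, 35.5 and 36.9 RPKM, 1.53-fold (95% interval 1.41 to 1.67) higher at 96 hours and not called. Cmpk2 and Rsad2 (viperin, which makes a chain-terminating nucleotide), neighbours in the genome, had at most 1.44 and 1.14 RPKM. They were 14.5-fold (95% interval 4.66 to 72.9) and 20.3-fold (95% interval 5.29 to 173) higher at 96 hours, on 49 and 45 reads over both libraries.

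The ADP-ribosyltransferases Parp9 and Parp14, the ligase partner Dtx3l, which lies in the same gene cluster, and Trim21, a receptor for antibody-coated virus, were 4 of 4 higher at 96 hours. Parp9 had 6.39, 5.09, 6.23, 7.98, 26.2 and 17.7 RPKM, 4.21-fold (95% interval 3.62 to 4.91) higher, and Dtx3l 3.80, 3.22, 4.27, 4.55, 13.5 and 9.48 RPKM, 3.15-fold (95% interval 2.70 to 3.70) higher. Parp14 had 2.02, 1.39, 2.04, 2.03, 8.37 and 5.15 RPKM, 4.11-fold (95% interval 3.41 to 4.98) higher. In these 3 the Dox and 48 hour levels were not below those of KH2 with PD0325901. Trim21, elsewhere in the genome, had 2.30, 2.27, 0.306, 0.520, 5.68 and 4.14 RPKM with its low point under Dox, and was 18.5-fold (95% interval 9.19 to 43.7) higher. The files do not separate strands, so reads where Parp9 and Dtx3l adjoin cannot be assigned to either with certainty.

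The remaining induced genes were called higher at 96 hours in 6 of 6 members and at 48 hours in 4. Ifi27, encoding a mitochondrial protein, had 6.79, 21.3, 1.01, 2.45, 40.8 and 41.6 RPKM, 40.5-fold (95% interval 21.8 to 85.0) higher at 96 hours. Rtp4, a chaperone of receptors, had 1.33, 1.69, 0, 1.77, 18.1 and 15.8 RPKM from 19, 24, 0, 27, 283 and 245 reads, at least 8.73-fold higher at 48 hours and 89.2-fold at 96 hours against the floor, with lower counting limits of 6.62 and 72.0. Ifi44 had 0.906, 0.985, 0.0364, 1.10, 6.79 and 8.20 RPKM from 24, 26, 1, 31, 197 and 235 reads, with a single read under Dox. All 3 were above both KH2 libraries by 96 hours.

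Xaf1, a binding partner of the apoptosis inhibitor XIAP, had 2.56, 7.13, 3.69, 7.94, 14.9 and 14.0 RPKM, 2.15-fold (95% interval 1.67 to 2.79) higher at 48 hours and just inside the limit there with a log2 ratio of 1.01. Lgals3bp, a secreted glycoprotein that binds galectins, had 12.8, 40.4, 1.03, 3.14, 22.2 and 35.2 RPKM, 3.05-fold (95% interval 1.84 to 5.24) higher at 48 and 21.6-fold (95% interval 14.0 to 35.2) higher at 96 hours. Just outside the limit at 48 hours lay Ifi35 at 0.98 and Irgm1 at 0.98. Cxcl10, a chemokine that draws T cells, had 13, 16, 0, 6, 23 and 28 reads and was at least 7.25-fold higher at 96 hours against the floor (lower counting limit 5.43).

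**Figure D3:**
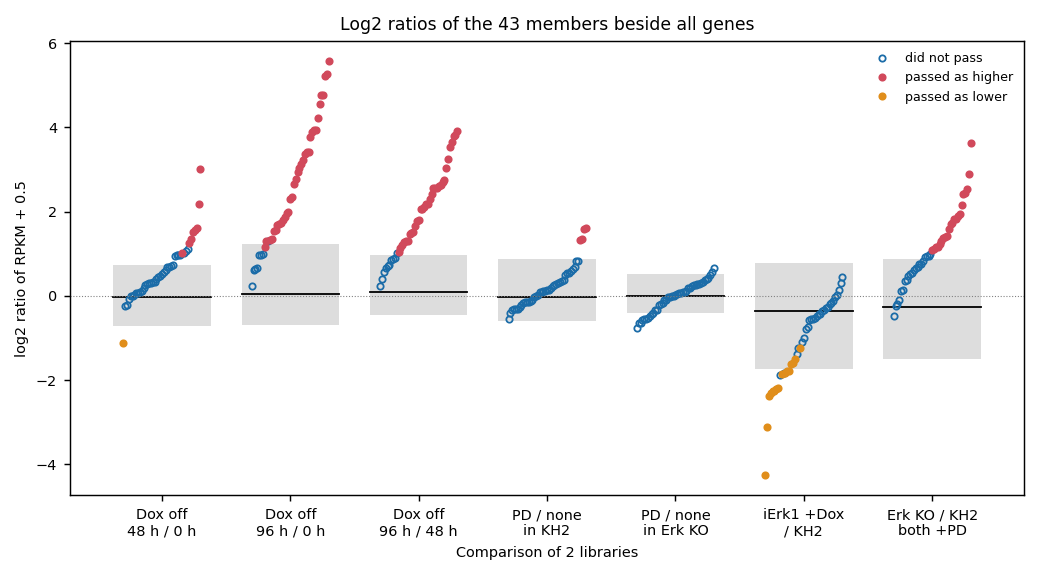
Log2 ratio of RPKM + 0.5 for each of the 43 members (circles, ordered by value) in the 7 comparisons of 2 libraries. Filled circles passed the limit of size as higher (red) or lower (orange), the grey box spans the 5th to 95th percentile of all genes tested and the black line is their median. Members reach 5.57 at 96 hours without Dox and lie between -0.78 and 0.65 for PD0325901 in the Erk KO line.

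The comparison of the line with Dox to KH2 set the starting point of the time course. In that library 16 of the 28 members that passed the filters were called lower than in untreated KH2 and 0 higher. Over 12421 genes the shares were 21.4% and 2.76%, so a low level was common there among all genes. The median log2 ratio was -0.99 over the members and -0.37 over all genes tested. Scaling by TMM or by DESeq2 size factors shifted the median of all genes by 0.36 or 0.41, and gave 11.8% of genes lower and 7.89% higher under TMM. Under TMM 15 members were lower. Lgals3bp was 12.4-fold (95% interval 7.95 to 20.4) lower, Gbp2 7.01-fold (95% interval 4.46 to 11.5) lower and Bst2 5.41-fold (95% interval 4.34 to 6.81) lower with Dox than in KH2. The nearest members to the limit were Nmi at -1.25 inside it and Stat2 at -0.99 outside. Ddx58, Parp14, Dtx3l and Xaf1 were the 4 of 43 with a ratio above 0, where 30.7% of all genes tested had one. Under TMM and DESeq2 size factors Oasl1, Parp9, Eif2ak2 and Samhd1 were above 0 as well. The summed fibroblast markers were also lower in that library, 230 against 772 RPKM, with 12 of 24 called lower. Of 10 macrophage and leukocyte markers, Lyz2 and Laptm5 were higher there and Cd68 lower. The part of either list in these differences was not tested.

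At 96 hours without Dox the members stood above KH2. In 40 of 43 the RPKM was higher than in untreated KH2, where 33.1% of 15103 genes were, the exceptions being Irf1, Ifit2 and Gbp2. Between the pair of PD0325901 libraries, 22 of the 40 members that passed the filters were called higher in the Erk KO line than in KH2. None was lower, and the shares over 12642 genes were 3.73% higher and 15.6% lower. The median was 1.08 over the members and -0.27 over all genes. TMM and DESeq2 size factors shifted the median of all genes by 0.28 and 0.29 and the shares to 7.55% higher and 8.81% lower under TMM, with 26 and 27 members higher. Ifit3 was 27.0-fold (95% interval 12.8 to 67.9) higher, Rtp4 9.40-fold (95% interval 6.17 to 14.9), Ifi44 8.32-fold (95% interval 5.54 to 13.002) and Oas2 6.60-fold (95% interval 4.46 to 10.1). Irf1 at -0.47, Uba7 at -0.24, Lgals3bp at -0.20 and Gbp2 at -0.11 were the members with a ratio below 0, of which Lgals3bp and Gbp2 were above 0 under TMM and DESeq2 size factors. Over all genes tested, 35.3% had a ratio above 0 as reported. The fibroblast markers went the other way, with 1226 against 3601 RPKM summed and 12 of 24 called lower. Of the 10 macrophage and leukocyte markers, Lyz2 and Adgre1 were higher and 0 lower, with a median log2 ratio of 0.69 over the list, and the part of either list was not tested. Eif2ak2 at 1.08 and Stat2 at 0.99 were nearest to the limit on either side.

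Under MEK inhibition 4 members passed the limit in KH2 and 0 in the Erk KO line. In KH2 with PD0325901, 4 of the 32 members that passed the filters were called higher (Lgals3bp, Ifi27, Ifit1 and Xaf1) and 0 lower, against 3.86% and 1.22% of 12787 genes. Lgals3bp was 3.16-fold (95% interval 2.74 to 3.66) higher, Ifi27 3.14-fold (95% interval 2.36 to 4.21), Ifit1 3.47-fold (95% interval 2.08 to 6.02) and Xaf1 2.78-fold (95% interval 2.07 to 3.79). Of the members that passed the filters, the next in size were Isg15 at 0.68 and Irgm1 at 0.65, both outside the limit. In the Erk KO line at 96 hours, 0 of the 41 members that passed the filters were called either way, against 1.34% of 11920 genes higher and 0.587% lower. There Lgals3bp was 1.58-fold (95% interval 1.41 to 1.78) higher and Gbp2 1.55-fold (95% interval 1.15 to 2.10) higher, while Oasl1 was 1.87-fold (95% interval 1.30 to 2.72) lower, Oas2 1.63-fold (95% interval 1.37 to 1.94) lower and Irgm1 1.49-fold (95% interval 1.34 to 1.66) lower. The median log2 ratio over the members was 0.14 in KH2 and 0.03 in the Erk KO line. In both pairs 16 of the 24 fibroblast markers were called higher, Col1a1 with 96.4, 878, 17.2, 17.7, 25.9 and 218 RPKM, and their part in the members' differences was not tested.

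Both pairs together allowed a single fit, a common PD0325901 effect with the cell state as a block, on 1 residual degree of freedom. Each condition still had 1 library. That degree of freedom holds the difference of the inhibitor effect between the states together with differences between cultures, which cannot be told apart. The members were chosen with these libraries in view, so the fit describes them and its calls support nothing about them. In the edgeR quasi-likelihood fit over 14782 genes, with the limit at a Benjamini-Hochberg adjusted value of 0.05, 1 member was higher and 4 were lower, against 6.05% and 2.92% of genes. Lgals3bp was higher by 1.14 ± 0.18 on the log2 scale (SE), and was higher in 2 of 2 pairs. Parp14 had a log2 fold change of -0.65 ± 0.14, Irf1 of -0.56 ± 0.14, Parp9 of -0.48 ± 0.13 and Ddx58 of -0.37 ± 0.11, each lower in 2 of 2 pairs. DESeq2 with the same block kept Lgals3bp and made none of the 4 lower calls. The edgeR fit without the block called 0 members, as did that over all 6 libraries in 3 states, and without the read filter Ddx58 was not called.

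Genes of the pathway upstream of ISGF3 were read from lists that hold no member. Of 21 interferon ligand genes, 19 had no row in any library, and Ifnk and the gene matched as Ifnz had 1 read each, both in KH2 with PD0325901. A gene with no row either had no read or was not in the authors' annotation. Of 9 receptor chains and Jak kinases, 0 were called in any of the 3 comparisons over the Dox withdrawal. Over all genes tested, 2.77% were higher and 2.13% lower at 48 hours, 7.62% and 2.07% at 96 hours, and 4.55% and 0.469% between them. Ifnar1, a chain of the type I receptor, had 9.15, 8.15, 9.35, 9.80, 8.57 and 8.34 RPKM, and Ifnar2, its partner, had 3.75, 6.09, 3.97, 3.55, 3.79 and 5.43 RPKM. Of 25 adaptors, kinases and receptors of nucleic acid sensing, Nod1 was the 1 called higher at 96 hours. Mavs, the adaptor of RIG-I and MDA5, had 8.73, 9.91, 6.89, 9.74, 10.1 and 11.1 RPKM, and Irf3, the factor it activates, 12.2, 11.8, 11.9, 9.83, 8.81 and 9.43 RPKM.

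Of 17 negative regulators, Cish and Tnfaip3 were called higher at 48 hours and Ptpn6 at 96 hours, both against Dox, and Socs1 between 48 and 96 hours. The shares of all genes called higher in these comparisons were 2.77%, 7.62% and 4.55%, in that order. Ptpn6 had 22.5, 16.2, 7.27, 11.2, 17.1 and 18.7 RPKM. Socs1, an inhibitor of Jak kinases, had 5.75, 3.79, 0.714, 0.538, 1.72 and 1.44 RPKM and was below its KH2 level at 96 hours, and Socs3 had 77.2, 55.4, 95.9, 54.6, 48.2 and 41.7 RPKM, lower at each later time.

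Further interferon-stimulated genes outside the members were read for the same times. Of 72 listed, also chosen with earlier results of these data known, 69 had a row. At 48 hours 8 of the 29 that passed the filters were called higher and 0 lower, against 2.77% and 2.13% of all genes tested. At 96 hours 30 of 46 were higher and 0 lower, against 7.62% and 2.07%. Over those with a row the median log2 ratio at 96 hours was 1.05, where all genes tested had 0.05. Oas1a had 2.62, 2.16, 0.281, 3.27, 9.20 and 10.8 RPKM, 32.7-fold (95% interval 13.7 to 102) higher at 96 hours, and Ifi204 had 2.10, 6.05, 0.646, 2.19, 10.8 and 16.8 RPKM, 16.7-fold (95% interval 9.75 to 31.0) higher. Of 15 genes of MHC class I and antigen processing, 9 passed the filters at 48 hours and 0 were called. At 96 hours 11 of the 14 that passed were called higher and 0 lower, beside the same shares of all genes. H2-D1, a class I heavy chain, had 14.8, 27.0, 2.94, 4.21, 20.3 and 21.4 RPKM, 6.89-fold (95% interval 5.09 to 9.52) higher at 96 hours, and B2m, the class I light chain, 87.1, 226, 29.2, 49.4, 95.2 and 181 RPKM, 3.26-fold (95% interval 2.81 to 3.78) higher. In the Erk KO line against KH2, both with PD0325901, 0 of these 15 were higher and 6 lower, against 3.73% and 15.6% of genes. Reads of class I genes are uncertain between near-identical copies.

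Of 14 listed genes that hold double-stranded RNA sources in check, 0 were called at 96 hours against Dox. Over all genes tested, 7.62% were higher and 2.07% lower there. Dnmt3a, a DNA methyltransferase, had 32.0, 10.4, 33.1, 9.34, 20.01 and 8.92 RPKM. It was called lower at 48 hours against Dox, with a log2 ratio of -1.77, and higher between 48 and 96 hours. Of the marker lists of other cells, 2 of 24 fibroblast genes (Dcn and Lox) were higher and 1 (Pdgfra) lower at 96 hours, 1 of 10 macrophage and leukocyte genes (Lyz2, also higher at 48 hours) was higher, and 1 of 5 endothelial genes (Tek) was higher. These counts stand beside the same shares of all genes at 96 hours, and beside 2.77% higher at 48 hours. Lyz2 had 0.312, 0.418, 2.01, 6.14, 8.17 and 6.83 RPKM. The endothelial gene Cdh5 had 11, 4, 6, 5, 1 and 2 reads, while Pecam1 had 821 with Dox and 1174 at 96 hours, and Kdr 11 and 26. Summed RPKM of the 5 endothelial genes was 27.5 with Dox and 38.9 at 96 hours, with a median log2 ratio of 0.43. The summed fibroblast level differed by 297 against 230 RPKM between 96 and 0 hours, where that of the members differed by 697 against 129 RPKM. Summed macrophage and leukocyte markers stood at 50.7 against 57.8 RPKM, while their median log2 ratio was 0.63, with 3 of the 10 passing the filters. The median was 0.37 over the fibroblast markers and 0.05 over all genes tested. Whether such cells had a part in the 96 hour levels was not tested.

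**Figure D4:**
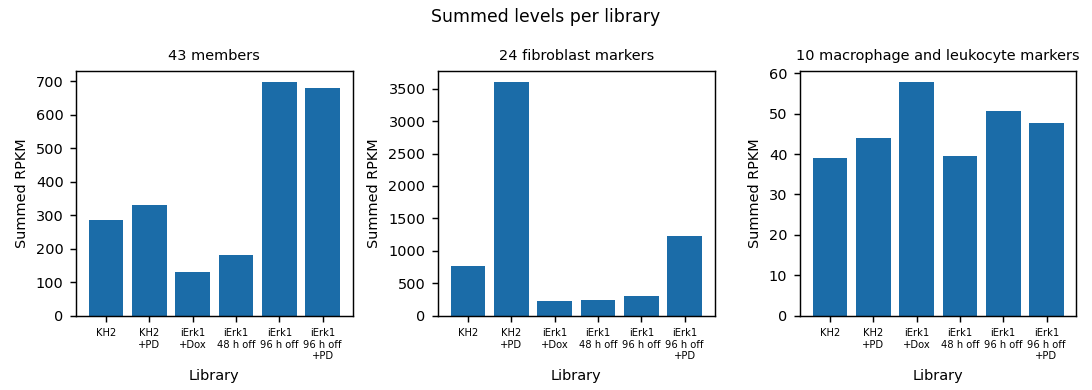
Summed RPKM per library of the 43 members, of 24 fibroblast markers and of 10 macrophage and leukocyte markers (bars start at 0, each panel has its own scale, 1 library per bar). The members peak at 697 and 680 RPKM in the 96 hour libraries, and the fibroblast markers at 3601 and 1226 RPKM in the PD0325901 libraries.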

How the data were processed

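PolyA RNA was sequenced as single-end reads of 1 library per group, per the labels' protocols. The deposited counts are the authors' uniquely mapped reads of each gene, per the file headers, and the deposited RPKM divides them by gene length and library total. The deposited coverage is the percent of a gene's length with reads. Per the submitters' processing notes the reads were placed on mm9. Aligner, annotation and strand handling are not given in the sources used here. Joining the files on NCBI gene ID gave 18857 genes, and a gene without a row was set to 0 reads. Symbols for 18805 genes came from RefSeq GRCm38.p6, whose promoter windows are not on the authors' build.

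The members, the lists and the roles were chosen with earlier results of these data known. Members with at least 20 RPKM in a library, or called in a comparison with at least 100 reads over both libraries, are given in every library, and the others by range. Of the other lists, up to 4 called genes per comparison with at least 100 reads could be named, by size of log2 ratio, beside Ifnar1, Ifnar2, Irf3, Mavs, Socs1 and Socs3. Nod1, Tek, Nanog, Fgf4, Utf1, Lin28a, Dppa5a, Zfp42, Laptm5, Cd68, Adgre1, Cish, Tnfaip3, Lyz2, Dcn, Lox, Pdgfra, Ifnk, Ifnz, Ptprc, Cdh5, Pecam1 and Kdr are named to complete small counts or as cell markers. Each interval is the exact 95% Clopper-Pearson one for the split of a gene's reads between both libraries. Reads had no molecular identifiers, so intervals and the floor of 3 reads cover counting error only. Log2 ratios used a pseudocount of 0.5 RPKM, which understates low genes.

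The PD0325901 fit used edgeR 4.0.16 with TMM on genes with at least 20 reads over 4 libraries. DESeq2 1.42.0, other pseudocounts, read filters and scalings were alternatives. The scripts were tested on simulated data. Some genes of the fixed lists are not reported here. Libraries held 9.09, 9.05, 9.41, 9.70, 9.95 and 9.83 times 1e6 reads.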

Additional observations from a re-analysis of the deposited data

Results flagged for a closer look

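Irgm1, a GTPase of defence against intracellular microbes, differed in opposite directions under PD0325901 in the 2 cell states. Its log2 ratio was 0.65 in KH2, with reads 1.61-fold (95% interval 1.29 to 2.02) of the untreated level, and -0.56 in the Erk KO line at 96 hours, with reads 0.672-fold (95% interval 0.604 to 0.747) of it. Both counting intervals exclude 1, each state is 1 pair of libraries, and the difference between the states was not tested.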

How the results depend on the processing

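No member's ratio changed sign as a call in any of the 6 alternative settings (pseudocounts of 0.1 and 1 RPKM, no filter, at least 100 reads, TMM and DESeq2 size factors). The 35 higher calls at 96 hours ranged from 28 to 37 over them. With at least 100 reads over both libraries, where fewer members passed, the higher calls at 48 hours came to 1 and the lower calls of the Dox library against KH2 to 6. TMM and DESeq2 size factors each gave 12 higher calls at 48 hours, where the count as reported was 8. For the common PD0325901 effect, the higher count was 0 without the block, 4 with scaling by library totals and 0 over all 6 libraries. The lower count was 0 by DESeq2 with the same block, 0 without the block and 0 over all 6 libraries, and 6 with scaling by library totals. At an unadjusted p under 0.05 these fits held 6 members (DESeq2), 0 members (edgeR, no block) and 1 member (edgeR, all 6 libraries), where the fit as reported held 10. Members lower at 48 hours and higher again at 96 hours were 1 with the larger steps required and 3 with at least 100 reads. The stricter response element was in 8 promoters. The labels carry no replicate numbers, so the pairing in that fit is the cell state alone. With 1 library per group, no difference over the Dox withdrawal has a replicate check, and members under 20 reads could not be compared at this depth.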
